A study of Mus musculus with 18 samples.

Results

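The G1 cyclins, cyclin-dependent kinases (CDKs) and CDK inhibitors described here are a set of 10 genes taken by name from the 55487 genes in the count files. They are the cyclin genes Ccnd2, Ccnd3, Ccne1 and Ccne2, the kinase genes Cdk4 and Cdk6, the inhibitor genes Cdkn1a (p21), Cdkn1b (p27) and Cdkn2c (p18), and Rb1, which encodes the retinoblastoma protein. All 10 passed the filter on low counts and stood among the 15318 genes tested. RNA came from the murine B lymphoma line WEHI-231, as parental (wild-type) cells and as #A-59 and #B-20, which are TFEB mutant clones of it. Each was left untreated (0 h) or BCR-stimulated for 6 h or 18 h with F(ab')2 fragments against IgM at 10 µg/ml, which gives 9 groups of 2 libraries, 18 in all, from independent experiments. Each mutant is 1 clone, made with CRISPR/Cas9 ribonucleoprotein against exons of Tfeb and grown from a single cell, so that an effect of the mutation and the particularities of a clone cannot be told apart. No animals entered these libraries.

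Progression through G1 is driven by D-type cyclins, which activate CDK4 and CDK6, and later by E-type cyclins, which activate CDK2. Both kinase complexes phosphorylate the retinoblastoma protein, which otherwise holds E2F transcription factors and with them the genes for DNA synthesis in check. INK4 inhibitors such as p18 bind CDK4 and CDK6 alone, whereas the CIP/KIP inhibitors p21 and p27 act on cyclin E complexes with CDK2. WEHI-231 cells are a long-used model in which ligation of the IgM receptor leads to arrest in G1 and death. TFEB is a transcription factor of the MiT/TFE family that binds E-boxes with the core CACGTG, a motif that it shares with Myc and other basic helix-loop-helix factors.

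Promoter windows show where that motif stands in the set. RefSeq windows of GRCm38.p6, running from 250 bases before to 50 bases after an annotated start, were at hand for 7 of the 10 genes (10 windows, with 2 each for Ccnd3, Cdkn1a and Cdkn2c). CACGTG, which reads the same on either strand, occurred in 3 of these 10 windows and in 7.15% of all 32851 windows. The Cdk4 window held 4 copies, with their first bases 172, 118, 98 and 11 bases before the start, and only 8 of the 32851 windows held 4 or more. Cdk6 had 1 copy, 220 bases before an annotated start that lies inside the span of the gene given below, downstream of its first base. The window at the downstream start of Cdkn2c had 1 copy, 34 bases after that start. These 3 windows are shown because they carry the motif. Capitals mark CACGTG, and each window is written 5′ to 3′ on the strand of its gene.
Cdk4 (chr10:127063285-127063584, plus strand): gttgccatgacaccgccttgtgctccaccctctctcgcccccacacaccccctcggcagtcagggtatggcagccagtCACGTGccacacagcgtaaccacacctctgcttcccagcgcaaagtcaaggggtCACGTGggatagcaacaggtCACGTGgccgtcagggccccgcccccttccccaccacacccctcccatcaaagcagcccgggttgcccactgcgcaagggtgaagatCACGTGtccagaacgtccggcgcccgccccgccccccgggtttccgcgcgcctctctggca
Cdk6 (chr5:3343643-3343942, plus strand): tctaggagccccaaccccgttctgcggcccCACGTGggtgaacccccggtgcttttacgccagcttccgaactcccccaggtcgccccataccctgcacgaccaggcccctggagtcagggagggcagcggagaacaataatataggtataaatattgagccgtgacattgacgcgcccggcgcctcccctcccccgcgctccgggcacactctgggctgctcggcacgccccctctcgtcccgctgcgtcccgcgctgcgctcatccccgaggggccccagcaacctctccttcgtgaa
Cdkn2c (chr4:109665323-109665622, minus strand): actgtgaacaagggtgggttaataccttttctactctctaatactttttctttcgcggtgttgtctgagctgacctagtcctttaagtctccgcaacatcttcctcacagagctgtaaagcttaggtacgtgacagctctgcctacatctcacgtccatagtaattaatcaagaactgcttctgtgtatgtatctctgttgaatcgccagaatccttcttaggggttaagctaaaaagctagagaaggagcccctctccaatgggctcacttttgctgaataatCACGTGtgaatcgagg
None of the 10 windows held the E2F sites TTTCCCGC, TTTGGCGC, TTTGCCGC or TTTCGCGC, searched on both strands, against 2.26% of all windows. The FoxO site GTAAACA or its reverse complement stood in 3.65% of all windows and in 1 of the 10, at the upstream start of Ccnd3. A match describes letters in a window and is not evidence of binding.

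The libraries held 11223588 to 29655262 counts each, and every gene of the set had at least 261 counts in every library. Tfeb, the targeted gene, was at 79.2 to 99.9 CPM (counts scaled to library size with TMM factors) in parental libraries, 25.5 to 40.5 in #A-59 and 34.2 to 54.1 in #B-20, so that no clone library reached a parental one. All 8 B cell markers were above 10 CPM in every library, and their summed level ran from 6053 to 12592 CPM. Its parental values were 8389 and 9142 CPM before stimulation, 6053 and 6256 CPM after 6 h and 11150 and 11449 CPM after 18 h. The T cell markers Cd3e, Cd8a and Thy1, the myeloid markers Cd14, Ly6g and Lyz2, and 5 of 6 erythroid markers each had 3 counts or fewer throughout. Of the other myeloid markers Itgam ran from 0.306 to 26.3 CPM and Csf1r from 0 to 2.16 CPM, and the 7 myeloid markers summed to 2.21 and 2.28 CPM in untreated and 8.30 and 9.10 CPM in 18 h parental libraries, 7.04 and 7.05 CPM in #B-20 at 18 h, and 7.86 and 9.68, 10.8 and 11.5, and 27.6 and 27.9 CPM in #A-59 at 0, 6 and 18 h. Further, the T cell marker Cd8b1 lay between 47.6 and 97.5 CPM and the endothelial marker Pecam1 between 20.2 and 160 CPM. In sum the 7 stromal and endothelial markers, of which Col3a1 and Dcn had no count, were at 25.2 and 28.5 CPM in untreated and 60.0 and 62.3 CPM in 18 h parental libraries, and at 137 and 164 CPM in #A-59 and 96.5 and 109.9 CPM in #B-20 at 18 h. This sum was 57.3 and 62.4 CPM in untreated #A-59 and 41.4 and 44.9 CPM in untreated #B-20. Pecam1, Itgam and the B cell markers thus moved with time. The stromal and endothelial sum was also higher in both clones than in parental cells, and the myeloid sum was higher in #A-59. For #B-20 the myeloid sum exceeded the parental one before stimulation, with 3.0 and 4.5 CPM. After 6 h it did so too (2.8 and 3.1 CPM, parental libraries 2.0 and 2.1), whereas after 18 h it was lower. The B cell sum differed too, with 7587 and 8184 CPM in #A-59 at 6 h. The part of these markers in the results below was not tested. The libraries of #A-59 at 6 h stood apart, with a median absolute log2 difference of 0.202 between replicates against 0.065 to 0.124 in the other 8 groups, and this difference followed the GC content of the transcripts (Spearman's rho across genes = 0.704). The smaller difference between the untreated libraries of #A-59, with a median of 0.123, followed GC content almost as closely (rho = 0.688), while the other 7 groups had rho between -0.363 and 0.081. By the excess of the difference over counting noise, the #B-20 libraries at 6 h stood out most, with a chi-square per degree of freedom of 58.2 against 33.2 for #A-59 at 6 h. For the members, some of the calls that were gained or lost without 1 of the #A-59 libraries at 0 or 6 h are given with the gene, and these are not complete.

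**Figure D1:**
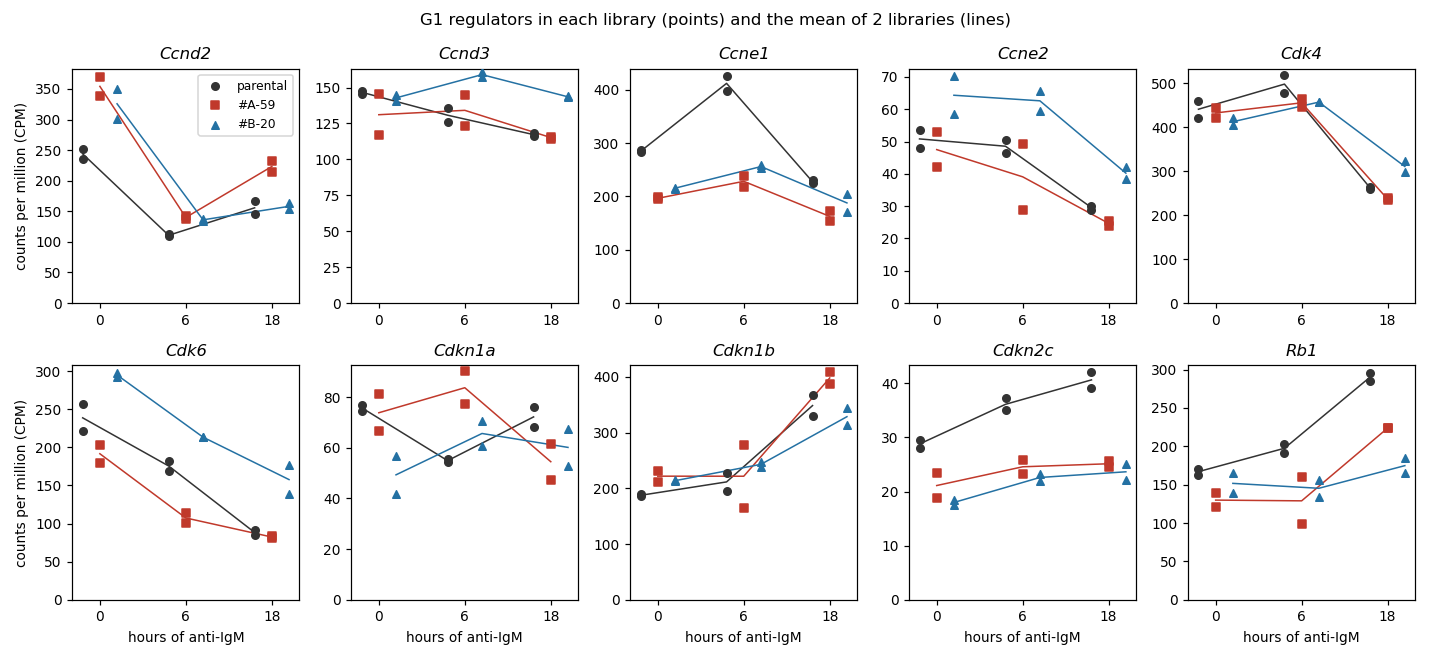
Level of each gene in CPM (y axis, from 0) at 0, 6 and 18 h of anti-IgM (x axis). Points are single libraries, lines join the means of 2 libraries, and colors and symbols mark parental cells, #A-59 and #B-20. Ccnd2 drops at 6 h in each genotype, Cdk4 and Cdk6 are lowest at 18 h, and Cdkn1b is highest at 18 h. Parental libraries lie above clone libraries of the same time for Ccne1 and Cdkn2c.

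BCR stimulation moved few genes of the set by 6 h and more of them by 18 h. In bulk RNA such as this, fewer cells of a type and less RNA per cell cannot be told apart. A gene is called changed here at an FDR under 0.01 and a DEG where the log2 fold change is also above 1 or below -1. In parental cells 3 of 10 changed at 6 h (7.34% of all tested genes) and 8 of 10 at 18 h (32.6% of all tested genes), 3 upwards and 5 downwards. In #A-59 the counts were 2 of 10 at 6 h (6.14% of all) and 6 of 10 at 18 h (31.8% of all). For #B-20 they were 1 of 10 (1.29% of all) and 5 of 10 (22.8% of all). Between 6 and 18 h, 7 of 10 changed in parental cells (38.3% of all), 8 of 10 in #A-59 (31.9% of all) and 4 of 10 in #B-20 (22.6% of all). DEGs were rarer. Ccnd2 was a DEG at 6 h in each genotype, where DEGs made up 2.62% of all tested genes for parental cells, 1.39% for #A-59 and 0.385% for #B-20. At 18 h the only DEG of the set was Cdk6 in parental cells (10.3% of all) and in #A-59 (8.76% of all), and Ccnd2 in #B-20 (4.8% of all). The median log2 change of the 10 genes at 18 h was -0.32 for parental cells, -0.36 for #A-59 and -0.10 for #B-20, while that of all tested genes was 0.04, 0.02 and 0.03.

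Against parental cells the clones differed in 2 to 6 genes of the set, none of them a DEG. For #A-59, 3 of 10 had changed at 0 h (9.56% of all tested genes), 6 of 10 at 6 h (22.7% of all) and 3 of 10 at 18 h (10.4% of all), and 0 of 10 were DEGs where 4.78%, 7.91% and 4.92% of all genes were. In #B-20 the counts were 4 of 10 (10.7% of all), 2 of 10 (14.2% of all) and 3 of 10 (14.2% of all), and 0 of 10 were DEGs against 5.16%, 6.73% and 6.21% of all genes. Comparisons of the clones use the same parental libraries at each time. The response itself was compared between clone and parental cells by an interaction term. By edgeR, 0 of 10 genes passed in #A-59 at 6 h (0.646% of all) and at 18 h (0.0392% of all) and in #B-20 at 6 h (0.183% of all) and at 18 h (0.222% of all), and DESeq2 also called 0 in each of the 4. At an unadjusted p under 0.05 the counts were 3, 0, 3 and 5 of 10. The share of all tested genes at that level was not computed, so that no conclusion is drawn from these counts. Other settings called single interactions, of Cdkn1a, Cdkn1b and Cdk6, which are given with these genes. Between the clones, 1 of 10 differed at 0 h (8.41% of all), 2 of 10 at 6 h (18.7% of all) and 4 of 10 at 18 h (16.2% of all).

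**Figure D2:**
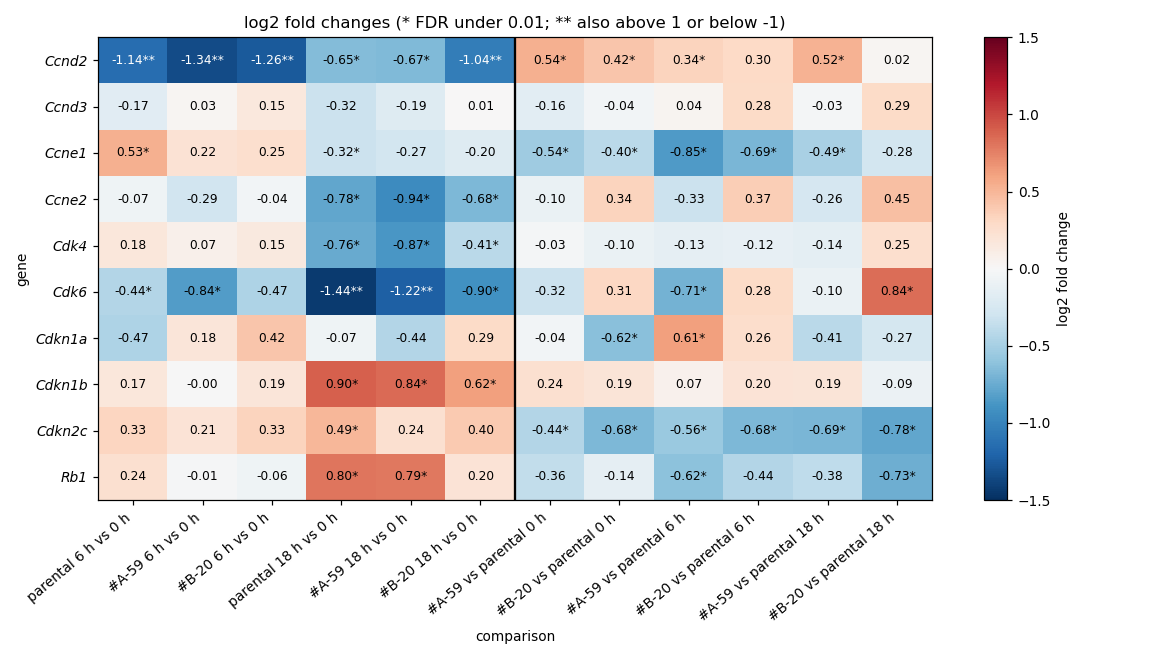
Log2 fold change of each gene (rows) in each comparison (columns), with the responses to anti-IgM left of the line and the clones against parental cells right of it. Blue is lower and red is higher, 1 asterisk marks an FDR under 0.01 and 2 mark DEGs. The darkest cell is Cdk6 in parental cells at 18 h (-1.44), and Cdkn2c carries an asterisk in each clone at each time.

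Levels per length give the order of the transcripts in untreated parental cells. On the scale of CPM per kilobase of the canonical transcript, Cdk4 led with 212 ± 12.8 (SD, n = 2), followed by Ccne1 with 137 ± 1.4 and Ccnd3 with 72.7 ± 0.69. Cdkn1b with 41.2 ± 0.58, Cdkn1a with 39.4 ± 0.91 and Ccnd2 with 38.5 ± 1.87 were close together, and the libraries of Cdkn1a and Ccnd2 overlapped. Rb1 had 33.3 ± 1.11, Cdk6 20.5 ± 2.16, Cdkn2c 10.7 ± 0.38 and Ccne2 9.76 ± 0.76. The other neighbours in this order had libraries that did not overlap. Exons of all 10 genes overlap antisense genes in GENCODE vM39 (for example Bysl at Ccnd3, Ints8 at Ccne2, Tspan31 at Cdk4 and Dino at Cdkn1a). In non-stranded libraries, reads that fall within such shared stretches cannot be assigned to either partner by strand.

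Ccnd2 (chromosome 6, bases 127125162 to 127152188 of GRCm38.p6), the D-type cyclin tied to BCR-driven proliferation, fell at 6 h in each genotype. In parental cells it was at 236 and 252 CPM before stimulation, 112 and 109 after 6 h, and 166 and 145 after 18 h. All 6 h libraries were thus below all 0 h libraries, and the 18 h libraries lay in between. The log2 fold change at 6 h was -1.14 ± 0.09 (SE, from edgeR, with an FDR, the adjusted p-value, of 1.24e-07) and that at 18 h -0.65 ± 0.09 (FDR = 1.52e-05), with a rise of 0.49 ± 0.09 from 6 to 18 h (FDR = 0.000233). In #A-59 its levels were 338 and 370 CPM, then 138 and 142 CPM, then 232 and 214 CPM. In #B-20 they were 301 and 351 CPM, then 137 and 135 CPM, then 153 and 163 CPM. The drop at 6 h measured -1.34 ± 0.09 and -1.26 ± 0.09 in the clones, with -0.67 ± 0.09 left for #A-59 and -1.04 ± 0.09 for #B-20 at 18 h. Recovery from 6 to 18 h passed the test in #A-59 (0.67 ± 0.09, FDR = 1.21e-05), while #B-20 had 0.22 ± 0.09 (FDR = 0.0776). Untreated clone cells held more Ccnd2 than parental cells, by 0.54 ± 0.09 on the log2 scale in #A-59 (FDR = 0.000297) and by 0.42 ± 0.09 in #B-20 (FDR = 0.00299). At 18 h, #A-59 was higher by 0.52 ± 0.09 (FDR = 0.000462), and #B-20 differed by 0.02 with a 95% interval of -0.17 to 0.22. Every response kept its call with any 1 library left out, apart from the parental rise from 6 to 18 h, which had 0.36 without replicate 1 at 18 h. The higher level in #A-59 lost its call at 0 h without parental replicate 1 (0.49), at 6 h without any of the 4 libraries (0.31 to 0.35; 0.34 with all, FDR = 0.0083) and at 18 h without #A-59 replicate 1 (0.47) or parental replicate 2 (0.43), and that in untreated #B-20 without either parental library (0.37 and 0.47) or #B-20 replicate 2 (0.30).

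Ccnd3 (chromosome 17, bases 47505051 to 47599689), the other D-type cyclin of the set, lies upstream of Tfeb on the same chromosome, where Tfeb spans bases 47737037 to 47792416. Parental libraries had 148 and 146 CPM before stimulation, 136 and 126 after 6 h, and 116 and 119 after 18 h, which gave a log2 change of -0.32 ± 0.10 at 18 h (FDR = 0.0119). #A-59 had 146 and 117 CPM, 145 and 123, and 115 and 116, and #B-20 had 145 and 141, 161 and 157, and 144 and 143. In none of the 22 comparisons did Ccnd3 pass the test, although its parental decrease at 18 h passed by DESeq2 (-0.33) and with the GC correction (-0.38), and its level in #B-20 at 6 h, 0.28 ± 0.10 above parental cells, passed with that correction (0.51). At 59.6% its transcript had the highest GC content of the 10. With Ccnd2 lower at 6 h, the share of Ccnd3 in the summed level of both genes per kilobase was 66.3% and 64.4% in parental libraries at 0 h and 79.1% and 78.3% at 6 h. It was 57.4% and 49.7% in #A-59 at 0 h and 76.7% and 73.2% at 6 h, and 60.2% and 55.8% in #B-20 at 0 h and 78.6% and 78.5% at 6 h.

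Cdk4 (chromosome 10, bases 127063535 to 127067288), the kinase partner of D-type cyclins whose promoter window holds 4 E-boxes, was lower at 18 h in each genotype. Parental cells had 459 and 422 CPM before stimulation, 519 and 477 after 6 h, and 263 and 259 after 18 h. The 18 h libraries were far below the others, and the log2 change against 0 h was -0.76 ± 0.08 (FDR = 3.92e-07). #A-59 had 444 and 421 CPM before stimulation, 447 and 464 after 6 h, and 234 and 238 after 18 h, a change of -0.87 ± 0.08 (FDR = 1.03e-07). #B-20 had 420 and 405 CPM before stimulation, 457 and 457 after 6 h, and 297 and 324 after 18 h, a change of -0.41 ± 0.08 (FDR = 0.000483). These 3 decreases kept their calls with any 1 library left out. At 6 h the estimates were between 0.07 and 0.18 and none passed. Clone and parental cells differed in Cdk4 at no time by the test, with 95% intervals of -0.19 to 0.13 for untreated #A-59 and -0.26 to 0.07 for untreated #B-20. At 18 h, #B-20 was 0.25 ± 0.08 above parental cells (FDR = 0.0248; called by DESeq2) and 0.39 ± 0.08 above #A-59 (FDR = 0.000952; not called without #A-59 replicate 1, with 0.38, #A-59 replicate 2, with 0.40, or #B-20 replicate 2, with 0.33). The interaction for #B-20 at 18 h was 0.35 ± 0.11 (FDR = 0.154).

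Cdk6 (chromosome 5, bases 3341004 to 3531008), the second kinase that pairs with D-type cyclins, had the largest log2 change against untreated cells among the 10 genes. Its parental levels were 221 and 256 CPM before stimulation, 169 and 182 after 6 h, and 91.2 and 85.2 after 18 h, so that the 3 times did not overlap. It fell by 0.44 ± 0.11 on the log2 scale at 6 h (FDR = 0.00964) and by 1.44 ± 0.11 at 18 h (FDR = 1.97e-08), the latter a 2.71-fold decrease. #A-59 had 180 and 203 CPM, 100 and 114, and 81.5 and 83.0, which makes -0.84 ± 0.11 at 6 h (FDR = 7.28e-05) and -1.22 ± 0.11 at 18 h (FDR = 1.32e-07). #B-20 had 293 and 297 CPM, 213 and 213, and 138 and 177, which makes -0.47 ± 0.11 at 6 h (FDR = 0.0232) and -0.90 ± 0.11 at 18 h (FDR = 7.47e-06). Cdk6 separated the clones from each other, since #B-20 exceeded #A-59 by 0.62 ± 0.11 at 0 h (FDR = 0.000552), 0.99 ± 0.11 at 6 h (FDR = 2.77e-06) and 0.94 ± 0.11 at 18 h (FDR = 5.42e-06). At each time the parental libraries lay between those of the clones. Against parental cells, #A-59 was lower at 6 h (-0.71 ± 0.11, FDR = 6.11e-05) and #B-20 was higher at 18 h (0.84 ± 0.11, FDR = 1.66e-05). The parental decrease at 6 h lost its call without any of the 4 libraries (-0.34 to -0.55), that of #A-59 when only the 4 libraries compared were fitted (-0.84), and the difference between untreated clones without #A-59 replicate 1 (0.53). The decreases at 18 h kept their calls throughout, and that of #B-20 at 6 h was called by DESeq2 (-0.48). The further decrease of #A-59 from 6 to 18 h (-0.38 ± 0.11, FDR = 0.00945) lost its call without its replicate 2 at 6 h (-0.29) or either 18 h library (-0.38 and -0.41). The interaction for #B-20 at 18 h was 0.53 ± 0.16 (FDR = 0.121), and the fits without a filter on low counts (0.63) and with replicate block and GC correction (0.59) did call it.

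Ccne1 (chromosome 7, bases 38097984 to 38107490), an E-type cyclin that activates CDK2 at the G1/S transition, was lower in the clones. Parental libraries had 282 and 287 CPM before stimulation, 398 and 426 after 6 h, and 225 and 230 after 18 h. The 6 h libraries were above and the 18 h libraries below the untreated ones. The log2 change was 0.53 ± 0.09 at 6 h (FDR = 0.000362) and -0.32 ± 0.09 at 18 h (FDR = 0.00632). #A-59 had 195 and 198 CPM before stimulation, 239 and 218 after 6 h, and 153 and 172 after 18 h. #B-20 had 214 and 216 CPM before stimulation, 252 and 259 after 6 h, and 172 and 204 after 18 h. All clone libraries were therefore below the parental libraries of the same time. Neither clone passed the test at 6 h against its own untreated cells (0.22 ± 0.09, FDR = 0.113, and 0.25 ± 0.09, FDR = 0.173), and the interaction did not pass either (-0.32 ± 0.13, FDR = 0.244, and -0.28 ± 0.13, FDR = 0.589). From 6 to 18 h, Ccne1 fell in parental cells (-0.86 ± 0.09), #A-59 (-0.49 ± 0.09) and #B-20 (-0.45 ± 0.09). Against parental cells #A-59 was lower by -0.54 ± 0.09 at 0 h (FDR = 0.000243), -0.85 ± 0.09 at 6 h (FDR = 6.33e-07) and -0.49 ± 0.09 at 18 h (FDR = 0.000688). #B-20 was lower by -0.40 ± 0.09 at 0 h (FDR = 0.00329) and -0.69 ± 0.09 at 6 h (FDR = 1.08e-05), with -0.28 ± 0.09 at 18 h (FDR = 0.0307). The differences at 6 h kept their calls with any 1 library left out. Lost were the parental rise at 6 h without replicate 2 at 6 h (0.48), the parental decrease at 18 h without any of the 4 libraries (-0.34 to -0.36), the difference of #A-59 at 18 h without its replicate 1 (-0.40) or parental replicate 2 (-0.47), and that of untreated #B-20 without any of the 4 libraries (-0.39 to -0.41) or with the GC correction (-0.24). The decrease from 6 to 18 h lost its call in #B-20 without replicate 1 at 18 h (-0.34) and in #A-59 with only the 4 libraries compared (-0.50).

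Ccne2 (chromosome 4, bases 11190433 to 11204779), the second E-type cyclin and itself a known E2F target, was the least abundant of the 10 per length in untreated parental cells. Its levels in parental cells were 53.6 and 48.0 CPM before stimulation, 50.5 and 46.6 after 6 h, and 30.1 and 28.9 after 18 h. #A-59 had 42.2 and 52.9, 28.8 and 49.3, and 25.5 and 23.9 CPM, and #B-20 had 70.3 and 58.4, 65.7 and 59.6, and 38.3 and 42.2 CPM. In each genotype the 18 h libraries were below all untreated ones. It fell at 18 h by 0.78 ± 0.18 in parental cells (FDR = 0.00219), by 0.94 ± 0.18 in #A-59 (FDR = 0.000537) and by 0.68 ± 0.18 in #B-20 (FDR = 0.00677). From 6 to 18 h the change was -0.72 ± 0.18 in parental cells (FDR = 0.0036), -0.65 ± 0.19 in #A-59 (FDR = 0.0091) and -0.64 ± 0.18 in #B-20 (FDR = 0.0096). The value of #A-59 rests on 6 h libraries that were far apart, at 28.8 and 49.3 CPM. Neither clone passed the test against parental cells at any time, but without replicate 2 of #A-59 at 6 h that clone was called lower at 6 h, both than parental cells (-0.75, with -0.33 when both were used) and than its own untreated cells (-0.72, with -0.29 when both were used). #B-20 exceeded #A-59 by 0.69 ± 0.18 at 6 h (FDR = 0.0073) and by 0.70 ± 0.18 at 18 h (FDR = 0.00886). The first of these rests on #A-59 replicate 1 at 6 h, without which it was 0.34, and it had 0.61 with the GC correction, neither of them called, and leaving out either #B-20 library ended its call too (0.61 and 0.77), as did each library at 18 h for the second (0.63 to 0.77). Against 0 h, the decrease at 18 h lost its call in #B-20 without any of the 4 libraries (-0.56 to -0.80). In parental cells it did so without replicate 1 at 0 h (-0.73), replicate 1 at 18 h (-0.85) or replicate 2 at 18 h (-0.78). The decrease of #A-59 at 18 h against 0 h kept its call.

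Cdkn1b (chromosome 6, bases 134920401 to 134925525), which encodes the CIP/KIP inhibitor p27, rose at 18 h in each genotype. Parental libraries were at 186 and 189 CPM before stimulation, 196 and 227 after 6 h, and 329 and 368 after 18 h. #A-59 libraries were at 212 and 231, 165 and 279, and 387 and 409 CPM, and #B-20 libraries at 213 and 214, 239 and 247, and 344 and 313 CPM. No 18 h library overlapped an earlier one of its genotype. The log2 change at 18 h was 0.90 ± 0.16 in parental cells (FDR = 0.000223), 0.84 ± 0.16 in #A-59 (FDR = 0.000395) and 0.62 ± 0.16 in #B-20 (FDR = 0.00602). Clones and parental cells did not differ by the test at any time, and the 95% interval at 18 h ran from -0.14 to 0.53 for #A-59 and from -0.42 to 0.25 for #B-20. The 2 libraries of #A-59 at 6 h lay on opposite sides of the parental ones. Compared with parental cells at 6 h, #A-59 had 0.07 with both, -0.36 with replicate 1 alone and 0.39 with replicate 2 alone, and each of the last 2 passed the test. Without replicate 2 of #A-59 at 6 h, calls were also made for its change from 0 h (-0.43, with -0.0027 when both were used), its interaction (-0.61, with -0.18) and the difference of #B-20 from it at 6 h (0.55, with 0.13). The rise in #B-20 lost its call without any of its 4 libraries (0.53 to 0.66), whereas those in parental cells and #A-59 kept it. Relative to Cdk4 per kilobase, Cdkn1b went from 0.185 and 0.205 at 0 h to 0.572 and 0.65 at 18 h in parental libraries, from 0.219 and 0.251 to 0.757 and 0.784 in #A-59, and from 0.232 and 0.242 to 0.529 and 0.443 in #B-20.

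Cdkn1a (chromosome 17, bases 29090979 to 29100722), which encodes the p53-responsive inhibitor p21, passed the test for no response against untreated cells. Parental libraries had 74.6 and 77.0 CPM before stimulation, 54.4 and 55.4 after 6 h, and 68.1 and 76.2 after 18 h. The 6 h libraries were the lowest, with a log2 change of -0.47 ± 0.15 (FDR = 0.0571). #A-59 had 81.0 and 66.6 CPM, 90.1 and 77.2, and 61.5 and 47.5, and #B-20 had 56.8 and 41.8, 70.4 and 60.9, and 67.5 and 52.8. In the clones the estimates at 6 h were positive, 0.18 ± 0.15 in #A-59 (FDR = 0.48) and 0.42 ± 0.16 in #B-20 (FDR = 0.208), where the parental one was negative. This gave the largest interaction of the set, 0.88 ± 0.22 for #B-20 at 6 h (FDR = 0.0931), which the fits without a filter on low counts (0.87) and with replicate block and GC correction (0.83) did call, and 0.65 ± 0.22 for #A-59 (FDR = 0.158), called without that filter (0.64). Cdkn1a was higher than in parental cells in #A-59 at 6 h (0.61 ± 0.15, FDR = 0.00539) and lower in untreated #B-20 (-0.62 ± 0.16, FDR = 0.00948), and it fell from 6 to 18 h in #A-59 (-0.62 ± 0.16, FDR = 0.00372). The first lost its call without any of the 4 libraries (0.48 to 0.72), the second without either parental library (-0.65 and -0.60), without #B-20 replicate 2 (-0.42) or with the GC correction (-0.45), and the third without #A-59 replicate 1 at 6 h (-0.51) or replicate 2 at 18 h (-0.46).

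Cdkn2c (chromosome 4, bases 109660876 to 109666756), which encodes the INK4 inhibitor p18, was lower in the clones at each time. Parental libraries had 29.5 and 28.1 CPM before stimulation, 35.0 and 37.2 after 6 h, and 42.1 and 39.2 after 18 h. #A-59 had 23.4 and 18.8, 23.3 and 25.8, and 24.6 and 25.7 CPM, and #B-20 had 17.5 and 18.5, 23.2 and 22.01, and 25.1 and 22.2 CPM. The highest clone library at any time, 25.8 CPM, was thus below the lowest parental library at any time, 28.1 CPM. The log2 difference from parental cells was -0.44 ± 0.11 (FDR = 0.00938), -0.56 ± 0.11 (FDR = 0.000693) and -0.69 ± 0.11 (FDR = 0.000211) in #A-59 at 0, 6 and 18 h. In #B-20 it was -0.68 ± 0.12 (FDR = 0.000304), -0.68 ± 0.11 (FDR = 0.000174) and -0.78 ± 0.11 (FDR = 3.81e-05). The response at 18 h passed in parental cells (0.49 ± 0.11, FDR = 0.0013) and not in #A-59 (0.24 ± 0.11, FDR = 0.0896) or #B-20 (0.40 ± 0.12, FDR = 0.0127), but the interactions of -0.25 ± 0.16 and -0.10 ± 0.16 did not pass (FDR = 0.898 and 0.834). All differences in #B-20 and that of #A-59 at 18 h kept their calls with any 1 library left out. At 0 h that of #A-59 lost it without either parental library (-0.40 and -0.48) or #A-59 replicate 2 (-0.30), at 6 h without parental replicate 2 (-0.52), and the parental response at 18 h lost it without either 0 h library (0.50 and 0.43) or replicate 1 at 18 h (0.41).

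Rb1 (chromosome 14, bases 73192858 to 73325951), the substrate that these kinases inactivate, rose at 18 h in parental cells and #A-59. Parental libraries had 171 and 163 CPM before stimulation, 192 and 203 after 6 h, and 296 and 285 after 18 h, a log2 change of 0.80 ± 0.16 at 18 h (FDR = 0.000558). #A-59 had 121 and 139 CPM, 98.3 and 160, and 224 and 224, with 0.79 ± 0.16 at 18 h (FDR = 0.000703). #B-20 had 165 and 139 CPM, 156 and 134, and 185 and 165, where 0 h and 18 h libraries overlapped and the change was 0.20 ± 0.16 (FDR = 0.341). The interaction for #B-20 at 18 h, -0.59 ± 0.22, did not pass (FDR = 0.249), so that a weaker response in this clone is not shown. At 18 h Rb1 was lower in #B-20 than in parental cells (-0.73 ± 0.16, FDR = 0.00243), and at 6 h it was lower in #A-59 (-0.62 ± 0.16, FDR = 0.006). The difference in #A-59 was -0.32 without its replicate 1, -0.67 and -0.58 without parental replicates 1 and 2 and -0.60 with only the 4 libraries compared, none of them called. Without replicate 2 of #A-59 at 6 h, Rb1 was called higher in #B-20 than in #A-59 at 6 h (0.56, with 0.18 when both were used). The difference in #B-20 at 18 h lost its call without either parental library (-0.70 and -0.76) or #B-20 replicate 2 (-0.65), the rise in parental cells without replicate 2 at 0 h (0.73) and that in #A-59 without replicate 1 at 0 h (0.68).

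**Figure D3:**
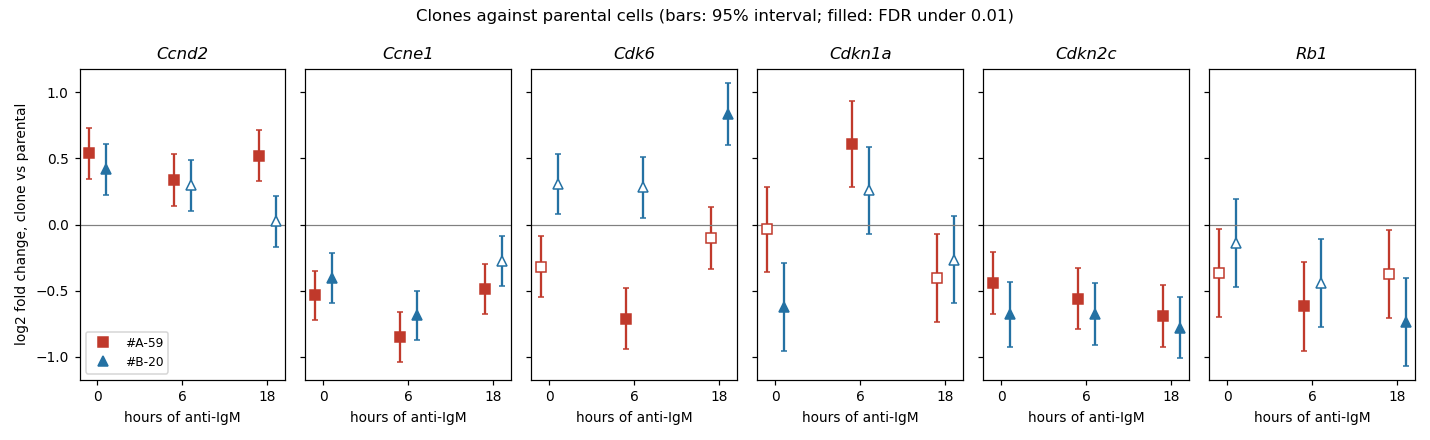
Log2 fold change of #A-59 (squares) and #B-20 (triangles) against parental cells (y axis) at 0, 6 and 18 h of anti-IgM (x axis) for 6 genes, with 95% intervals as bars and filled symbols for an FDR under 0.01. Ccne1, Cdkn2c and Rb1 lie below 0 in each clone at each time, with filled symbols of Rb1 only for #A-59 at 6 h and #B-20 at 18 h. Cdk6 lies on opposite sides of 0 in the clones at 6 h, at -0.71 and 0.28.

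Other regulators of G1 and of the G1/S transition were examined as a list of 40 genes, of which 36 were tested. At 18 h, 8 rose and 11 fell in parental cells (16.4% of all tested genes rose and 16.2% fell), 7 rose and 12 fell in #A-59 (14.7% and 17.1% of all), and 9 rose and 8 fell in #B-20 (11.4% of all in either direction), with medians of -0.23, -0.27 and -0.13. DEGs of parental cells at 18 h on the rising side were the antiproliferative genes Btg2 (1.54 ± 0.12, FDR = 1.47e-08) and Btg1 (1.22 ± 0.13), Ccng2, a cyclin linked to cell cycle exit (1.36 ± 0.14), and the INK4 inhibitor gene Cdkn2d (1.06 ± 0.11). The falling side held Ccnd1, the third D-type cyclin (-1.52 ± 0.30, FDR = 0.00134), Tfdp1, the dimerization partner of E2F (-1.11 ± 0.10), and Cdc25a, the phosphatase that activates CDK2 (-1.05 ± 0.10). These 7 genes moved the same way in #A-59, where each passed the test. In #B-20, 6 of them passed as well, and Ccnd1 had -1.04 ± 0.30 (FDR = 0.0166). Cdkn2a encodes the INK4 inhibitor p16 and p19Arf. Against parental cells it was the only gene of the list that was a DEG of 1 direction in both clones at the same time. At 18 h it had -2.40 ± 0.42 in #A-59 (FDR = 0.000389) and -1.42 ± 0.35 in #B-20 (FDR = 0.00557). It was weakly expressed, at 2.68 and 2.70 CPM in parental cells at 18 h, 0.524 and 0.482 in #A-59, and 0.738 and 1.31 in #B-20.

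Genes that E2F activates at the G1/S transition, 40 in number and all tested, were mostly lower at 18 h in parental cells and #A-59. In parental cells 32 of 40 fell (16.2% of all tested genes fell) and none rose, with a median of -0.53. In #A-59, 37 of 40 fell (17.1% of all) with a median of -0.82, and in #B-20, 5 of 40 fell, a share near that of all tested genes (11.4% of all), with a median of -0.20 and 6 of 40 estimates above 0. Between 6 and 18 h 37 of 40 fell in parental cells (18.9% of all), 39 in #A-59 (17% of all) and 22 in #B-20 (11.1% of all). The most strongly reduced in parental cells were Mybl2, a transcription factor of cycling cells (-1.29 ± 0.12, FDR = 9.77e-08), Orc1 of the origin recognition complex (-1.23 ± 0.13) and Mcm2 of the replicative helicase (-1.02 ± 0.15). In #B-20 these had -0.61 ± 0.11, -0.58 ± 0.12 and -0.52 ± 0.15, the first 2 of them past the test. The least reduced were Pold1 with -0.11 ± 0.14, Prim1 with -0.21 ± 0.10 and Tk1 with -0.25 ± 0.10, and none of them passed in parental cells. At 18 h, 21 of 40 were higher in #B-20 than in parental cells (5.7% of all) and 34 of 40 higher than in #A-59 (8.08% of all), whereas 1 of 40 was higher and none lower than in parental cells at 0 h. The interaction for #B-20 at 18 h was above 0 for 39 of 40 genes with a median of 0.34, where the median of all tested genes was 0.011. By edgeR 0 of 40 passed (0.222% of all), with a lowest FDR of 0.0448. An unadjusted p under 0.05 was found for 23 of 40, and the share of all tested genes at that level was not computed. Markers of B cells summed to 9748 and 10381 CPM in #B-20 and to 11150 and 11449 CPM in parental cells at 18 h.

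A list of 25 p53 target genes, of which 20 were tested, was examined beside Cdkn1a. At 18 h, 4 rose and 4 fell in parental cells, 4 rose and 5 fell in #A-59, and 3 rose and 2 fell in #B-20, with medians of 0.17, -0.01 and -0.05. Among all tested genes 16.4% rose and 16.2% fell in parental cells, 14.7% and 17.1% in #A-59, and 11.4% in either direction in #B-20. Trp53inp1 gained most (1.86 ± 0.20, FDR = 3.73e-06), followed by Gdf15, which did not pass (0.87 ± 0.62), and Bbc3, the gene of the BH3-only protein PUMA (0.80 ± 0.12). Tigar (-1.35 ± 0.20), Aen (-1.05 ± 0.17) and Tnfrsf10b (-0.66 ± 0.15) were reduced most.

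**Figure D4:**
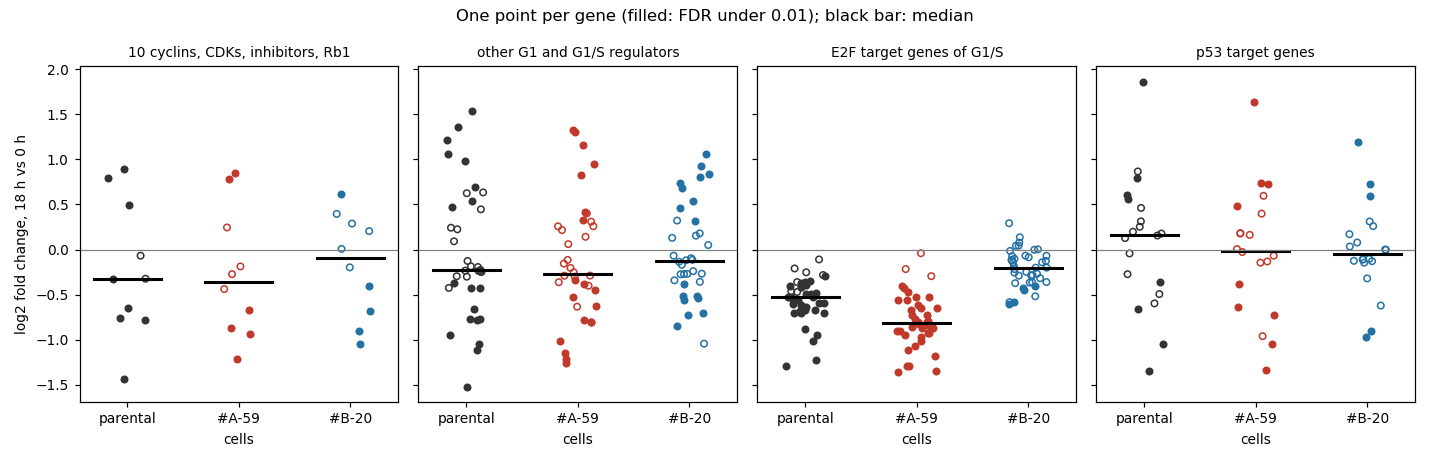
Log2 fold change from 0 to 18 h (y axis) for each gene of 4 groups (panels) in parental cells, #A-59 and #B-20 (x axis). Filled points have an FDR under 0.01 and black bars are medians. The E2F targets lie below 0 in parental cells and #A-59, with medians of -0.53 and -0.82, and closer to 0 in #B-20, with a median of -0.20.

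For each of the 10 genes, the tested genes with the most similar log2 CPM over the 18 libraries were looked up, as a description in which all points share the same libraries. Cdk4 was closest to Nup205 of the nuclear pore and to Timm50 of mitochondrial protein import (Pearson's r = 0.987 for each). Cdk6 was closest to the noncoding RNAs Snhg4 (0.980) and AU020206 (0.979), and Cdkn1b to Ist1 (0.979) and Zmym5 (0.968). Ccne2 followed Htatsf1 (0.977) and the centromere gene Cenpi (0.974), and Ccne1 followed Fbxo40 (0.952) and Klhdc2 (0.947). Rb1 went with Strbp (0.963) and Fbxl5 (0.952), and Cdkn2c with Fam20b (0.961) and Msi1 (0.945). Ccnd2 was closest to the apoptosis inhibitor gene Birc3 (0.935) and to Tfe3 (0.911), which encodes a relative of TFEB. The lowest values were those of Ccnd3 with Kremen2 (0.876) and Mrps18a (0.870) and of Cdkn1a with Erfl (0.874) and Spats1 (0.831).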

How the data were processed

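The authors deposited raw gene counts of non-stranded, single-end mRNA libraries, aligned with STAR 2.5 to GRCm38 and counted with featureCounts 1.5.0-p1 (the paper's methods and the submitters' processing notes). Libraries were grouped by their labels. The members and gene lists were chosen with earlier results of these data known. With edgeR 4.0.16 in R 4.3.3, filterByExpr kept 15318 genes, TMM factors scaled the library sizes, and a robust quasi-likelihood model with 1 mean per group was fitted to all 18 libraries for 22 comparisons. P-values were adjusted per comparison over all tested genes (Benjamini-Hochberg, FDR), and thresholds follow the paper's DEG rule. The fit was tried on 1 simulated set, in which 200 of 14864 genes had a log2 change of 2 in parental cells at 18 h. It called 184 of these and 0 unchanged genes. Smaller changes, such as those of the members, were not simulated. Its counts were drawn independently from the negative binomial model, without replicate differences that follow GC content, so that it does not show the rate of false calls in these libraries. Named genes are the members, Tfeb, other G1 regulators that were DEGs in parental cells at 18 h or alike in both clones at the same time, the 3 E2F and p53 targets that moved most in each direction in parental cells at 18 h, and the 2 genes most similar to each member. Alternatives were DESeq2 1.42.0 with and without betaPrior, its size factors, only the libraries compared, no filter, a minimum of 10 counts in each library, the replicate number as a block, a GC correction (loess, span 0.5), and each library left out. Coordinates are from RefSeq on GRCm38.p6, transcript lengths and GC content from GENCODE vM39 (93.2% of genes matched). 1 list entry matched no gene.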

Additional observations from a re-analysis of the deposited data

How the results depend on the processing

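Of 220 results (10 members in 22 comparisons), 72 passed the threshold. Of these, 56 kept their call under all alternative fits, 36 with each library of the compared groups left out, and 34 under both. A call lost with 1 library out leaves that group with 1 library, assumed to vary like the others. 2 results changed sign with a call. Cdkn1b in #A-59 against parental cells at 6 h had -0.36 without #A-59 replicate 2 (0.39 without replicate 1), and Ccnd3 in untreated #B-20 against parental cells had 0.27 with the replicate block and the GC correction. The cause of neither was tested.

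The number of members changed moved as follows. Fitting only the libraries compared gave 1 in place of 2 for #A-59 at 6 h against 0 h, 4 in place of 8 for #A-59 at 18 h against 6 h, 3 in place of 6 for #A-59 and 7 in place of 2 for #B-20 against parental cells at 6 h, and 1 in place of 2 for #B-20 against #A-59 at 6 h. Among all tested genes, this fit took the calls from 941 to 49, 4889 to 2649 and 3473 to 1610 for #A-59, in that order. The all-gene calls for #B-20 at 6 h went from 2179 to 3231 against parental cells and from 2868 to 926 against #A-59. For #B-20 at 6 h against 0 h the main count was 1, and it was 2 by DESeq2 with or without betaPrior, without a filter, with the replicate block, with the GC correction, with both, and with only the libraries compared. For untreated #B-20 against #A-59 it was 1, and 2 under the same settings, except 3 without a filter and with block and GC correction together. With the GC correction, #B-20 against parental cells had 2 in place of 4 at 0 h, 4 in place of 2 at 6 h (4 with the block too) and 5 in place of 3 at 18 h (5 with the block too, and 5 without a filter). All-gene calls of #B-20 against parental cells went with the GC correction from 1638 to 1720 at 0 h. They went from 2179 to 2482 at 6 h and from 2182 to 2780 at 18 h. For #B-20 at 6 h against 0 h, all-gene calls went from 197 to between 262 and 596 under the settings named for it. Interactions had 0, but 1 without a filter for #A-59 at 6 h and for #B-20 at 6 and 18 h, and 1 with block and GC correction for #B-20 at 6 and 18 h.

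With 1 library left out, members changed at 6 h against 0 h numbered 1 to 2 in parental cells, 2 to 4 for #A-59 and 1 for #B-20. At 18 h against 0 h they were 5 to 6, 5 to 6 and 3, and at 18 h against 6 h 4 to 6, 5 to 7 and 1 to 3. Against parental cells #A-59 had 1 to 3, 2 to 6 and 1 to 3 at 0, 6 and 18 h, and #B-20 had 1 to 3, 2 and 2 to 3. The interaction of #A-59 at 6 h had 0 to 1 (1, Cdkn1b at -0.61, without #A-59 replicate 2), the other 3 had 0, and #B-20 against #A-59 had 0 to 2, 1 to 4 and 1 to 3.

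The labels give shared replicate numbers but not that a number marks a shared experiment, and the samples were not treated as paired. The paper's figure legend gives n = 2 independent experiments for these data, without assigning libraries to them. Over 36 pairs of groups, the deviations of same-numbered libraries correlated at -0.026 to 0.32 (median 0.078), with 14 of 36 over 0.1, so that a shared experiment is neither shown nor absent. With the replicate block, genes called among all tested went from 941 to 1319 for #A-59 at 6 h against 0 h and from 4991 to 5389 for parental cells at 18 h against 0 h. The replicate block alone moved no count of members by over 1.5 times other than the 2 named above.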
